A study of Mus musculus with 7 samples.

Results

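The nuclear face of a developing mouse sperm head is wrapped in the perinuclear theca, a rigid protein layer that lies between the nucleus and the acrosome in front and between the nucleus and the plasma membrane behind. It is built in spermatids, the haploid cells that reshape into sperm, partly from proteins related to actin that are made in the testis. Members of this group hold the acrosome to the nucleus, and the loss of several of them in mice is known to impair male fertility. RNA levels of 10 such genes were read from total testis. They were found by gene name in the deposited table, which lists 19719 genes, and all 10 were present: *Actl7a*, *Actl7b*, *Actl9*, *Actl11*, *Actrt1*, *Actrt2* and *Actrt3*, which encode actin-like proteins, *Capza3*, the germ cell form of the alpha subunit of actin capping protein, and *Ccin* and *Cylc1*, which encode the theca proteins calicin and cylicin.

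The study asked how loss of the X-linked gene *Rlim*, which encodes a RING-type E3 ubiquitin ligase, alters gene expression in the testis. RNA came from total testis of 8-week-old C57BL/6 males, from 3 fl/Y mice (genotype WT in the labels), which carry a floxed *Rlim* allele without Cre, and from 4 cKO/Y Sox2-Cre mice (Rlim-KO in the labels), here cKO/Y, in which a Sox2-Cre transgene removes *Rlim*. The floxed *Rlim* allele is thus shared by both groups. Sox2-Cre acts in the early embryo, so the deletion was present in both the somatic cells and the germline, and a germ cell difference could not be told apart from one that arises in somatic cells. The methods call the controls littermates and the samples biological replicates. The labels divide the libraries into batch 1 (fl/Y replicate 3 and cKO/Y replicates 3 and 4) and batch 2 (fl/Y replicates 1 and 2 and cKO/Y replicates 1 and 2) and do not say what a batch is.

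Values are CPM, each library's reads over its scaled library size. Depth ranged from 2822168 to 8633399 reads over all listed genes, and the upper limit for a gene with 0 reads, set at 3 reads for counting error alone, came to 0.301 to 0.945 CPM. *Rlim* was 99.5, 70.7 and 61.5 CPM in the fl/Y libraries and 32.6, 35.7, 21.7 and 20.7 CPM in the cKO/Y libraries. It fell by 1.38 on the log2 scale (SE 0.16, adjusted p = 0.00870, limma), a direction seen in both batches. Over 20 alternatives the estimate stayed between −1.52 and −1.28, while the adjusted p was above 0.05, and the call lost, in 6 of them. Among these 6 were the fits without fl/Y replicate 1 (0.154) and without fl/Y replicate 3 (0.634, limma). Among lists of cell type markers, those of spermatids summed to 5560 to 10780 CPM and those of meiotic spermatocytes to 478 to 1144 CPM. None of 5 epididymis markers was in the table. In RNA of a whole organ, fewer cells of a type and less RNA per cell cannot be told apart.

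How well the reads of the members can be separated depends on where the genes lie and how alike they are. All 10 members had the same start and end in the GENCODE M21 annotation of GRCm38 as in the table. 8 of the 10 have a single exon, while *Actrt3* has 2 exons and *Cylc1* has 6. *Actl7a*, *Actl7b* and *Actl9* carry the retrogene tag of that annotation. *Actl7b* (ENSMUSG00000070980, chr4:56740005-56741443, minus strand) and *Actl7a* (ENSMUSG00000070979, chr4:56743413-56744925, plus strand) lie head to head, with 1969 bases between their starts. Chromosome 4 of GRCm38 also holds *Ccin* (ENSMUSG00000070999) at chr4:43983483-43985423, plus strand, and *Actrt2* (ENSMUSG00000051276) at chr4:154666433-154667867, minus strand. Chromosome X holds *Actrt1* (ENSMUSG00000046615) at chrX:46329007-46330345, plus strand, and *Cylc1* (ENSMUSG00000073001) at chrX:111110418-111125854, plus strand. The others lie apart, *Actl9* (ENSMUSG00000092519) at chr17:33432896-33434268, plus strand, *Actl11* (ENSMUSG00000066368) at chr9:107928469-107932461, plus strand, *Actrt3* (ENSMUSG00000037737) at chr3:30597073-30599939, minus strand, and *Capza3* (ENSMUSG00000041791) at chr6:140041252-140042778, plus strand. The coding sequences of *Actl7a* and *Actl7b* were identical at 65.4% of 1236 aligned bases, and the longest run of bases they share is 13. The stretch below shows the kind of likeness involved. It is a part of both coding sequences, written in the direction of transcription, where 47 of 60 bases were the same and the 13 that differ are in capitals (*Actl7a* at chr4:56744020-56744079, plus strand, and *Actl7b* at chr4:56740818-56740877, minus strand, GRCm38).
Actl7a: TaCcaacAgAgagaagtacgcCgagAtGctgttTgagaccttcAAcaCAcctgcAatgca
Actl7b: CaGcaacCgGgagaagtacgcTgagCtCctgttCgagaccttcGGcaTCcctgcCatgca
Among the other actin-like members, *Actrt1* and *Actrt2* were the most alike, at 70.7% of 1120 aligned bases. The longest run shared by any pair, also with the ordinary actin *Actb*, was 19 bases, shorter than the 35-base reads. *Actl11*, whose coding sequence of 3621 bases is far longer than that of its relatives, was not aligned. No run of 35 bases in any member occurred on the same strand in a transcript of another gene.

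On the opposite strand the picture differed for *Actl7b*. *Gm26657* (ENSMUSG00000096930, chr4:56740070-56741377, plus strand), annotated as protein-coding, covers 1308 of the 1439 exon bases of *Actl7b* (90.9%) and leaves 131 free. It is not among the genes of the table. Of the 35-base runs of *Actl7b*, 90.7% occur reversed in *Gm26657*. Whether the counting used strand is not given in the sources used here. Without strand, reads of *Actl7b* and *Gm26657* cannot be told apart, and the *Actl7b* values are therefore uncertain. The other overlap was of *Capza3* with *Plcz1* on the opposite strand, over 107 exon bases (7.01%), and the remaining 8 members overlapped no other gene's exons.

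**Figure D1:**
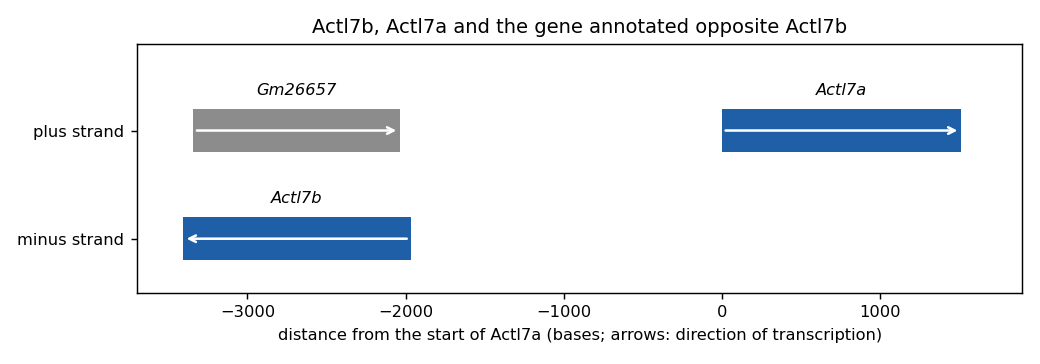
Positions of *Actl7b*, *Actl7a* and *Gm26657* on the 2 strands, as distance in bases from the start of *Actl7a*, with arrows in the direction of transcription. *Gm26657* covers 90.9% of the exon bases of *Actl7b* and none of *Actl7a*.

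Levels of different genes were compared per kb of exon. *Actl9*, whose protein works with ACTL7A in anchoring the acrosome, had a median over the 7 libraries of 183.8 CPM per kb, *Actrt2* 183.1, *Actl7a* 127 and *Capza3* 91.0 CPM per kb. *Ccin* (86.0 CPM per kb), *Actl11* (76.4) and *Cylc1* (49.9) followed. *Actrt1* (13.0 CPM per kb) and *Actrt3* (9.17) were lower, and *Actl7b* had the lowest median, 1.51 CPM per kb. *Actrt1* was above *Actrt3* in the 4 libraries of batch 2 and below it in every library of batch 1. Most neighbours in this order had overlapping ranges. Only the steps from *Cylc1* (23.0 to 76.4) to *Actrt1* (9.27 to 17.1) and from *Actrt3* (6.49 to 23.0) to *Actl7b* (0 to 5.43) showed none. If counting dropped every read in the overlap, the counted reads would come only from the 131 bases of *Actl7b* that *Gm26657* leaves free. Over those bases the same reads gave a median of 16.6 CPM per kb, above the medians of *Actrt1* and *Actrt3*. The values ran from 0 to 59.6 CPM per kb, a range that encloses those of both genes. Whether such reads were dropped is not given in the sources used here, so the place of *Actl7b* in the order is uncertain.

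**Figure D2:**
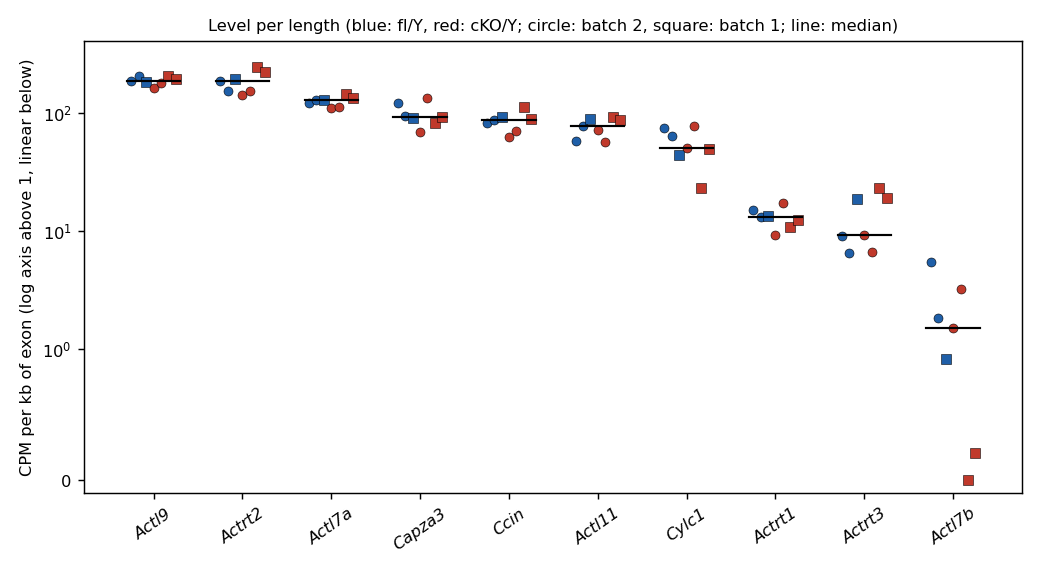
Level of each member per kb of exon in the 7 libraries, on an axis that is logarithmic above 1 CPM per kb and linear below. Lines are medians, blue is fl/Y, red is cKO/Y, circles are batch 2 and squares batch 1. The medians run from 183.8 CPM per kb for *Actl9* to 1.51 for *Actl7b*.

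For the effect of *Rlim* loss, genes above 1 CPM in 3 or more libraries entered a limma fit of log2(CPM + 0.5) on genotype and batch, which pools information on the variance across genes. Two-sided p-values were corrected by the Benjamini-Hochberg method over the 19400 genes that passed this filter. All 10 members passed. 0 of the 10 members were called at an adjusted p below 0.05, and 0 had an unadjusted p below 0.05. Over all genes tested, 0.00515% were called, which is *Rlim* alone, and 2.58% had an unadjusted p below 0.05. On the recovered reads, edgeR and DESeq2 also called 0 members. The estimate was below 0 for 9 members and above 0 for 1, with a median of −0.081, against a median of −0.0055 over all genes, of which 9942 were below 0 and 9458 above. The members were measured in the same libraries, so their shared sign is not 9 separate observations.

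*Actl7a*, needed for the acrosome to attach to the nucleus, was 181, 193 and 193 CPM in fl/Y replicates 1 to 3 and 166, 169, 216 and 199 CPM in cKO/Y replicates 1 to 4. The cKO/Y values lay on both sides of the fl/Y values, and the difference was −0.05 on the log2 scale (SE 0.14, unadjusted p = 0.701, adjusted p = 0.9999, limma). *Actl9* was 252, 279 and 247 CPM in fl/Y and 222, 245, 281 and 266 CPM in cKO/Y. Its groups overlapped as well, and its difference was also −0.05 (SE 0.14). These were the members with the least spread. Among tested genes of like level, 11.2% had a smaller residual SD than *Actl7a* and 25.8% a smaller one than *Actl9*.

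*Actl11*, the longest of the group, was 228, 305 and 352 CPM in fl/Y and 283, 225, 363 and 347 CPM in cKO/Y. The difference of −0.04 (SE 0.15) was well within the spread of either group. *Actrt2*, a theca protein known as an actin-related protein of the testis, was 263, 219 and 276 CPM in fl/Y and 203, 220, 349 and 317 CPM in cKO/Y. The 2 highest and the lowest values were both in cKO/Y libraries, and the estimate was −0.001 (SE 0.15). In batch 1 alone, with its single fl/Y library, the estimate for *Actrt2* was 0.27 and in batch 2 alone it was −0.18.

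*Actrt1*, on chromosome X like *Rlim*, encodes another theca protein of this kind. It was 20.1, 17.4 and 17.8 CPM in fl/Y and 12.4, 22.9, 14.5 and 16.5 CPM in cKO/Y, a difference of −0.16 (SE 0.22). The fl/Y values lay inside the cKO/Y range. *Actrt3*, which encodes a partner of the testis profilin, was 17.7, 12.7 and 36.1 CPM in fl/Y and 18.0, 13.0, 45.0 and 37.0 CPM in cKO/Y. Its values split by batch and not by genotype, and *Actrt3* was the only member with an estimate above 0 (0.09, SE 0.19).

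*Capza3* caps the ends of actin filaments as part of a germ cell heterodimer. Its levels were 185, 144 and 136 CPM in fl/Y and 105, 204, 125 and 139 CPM in cKO/Y (−0.11, SE 0.19). Libraries of the same genotype and batch, cKO/Y replicates 1 and 2, held its lowest and its highest value. The share of *Capza3* in the summed reads of the alpha subunit genes *Capza1*, *Capza2* and *Capza3* does not depend on library scaling. It was 45.9%, 44.9% and 40.2% in fl/Y and 40.5%, 46.1%, 41.5% and 39.4% in cKO/Y, or 43.7% ± 3.02 (SD, n = 3) against 41.9% ± 2.93 (SD, n = 4). The difference of −1.79 percentage points gave p = 0.486 in a two-sided exact permutation test, whose smallest possible p here is 0.0571. Within batch 2 the difference was −2.08 and within batch 1 it was 0.22 percentage points.

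*Ccin*, a basic protein of the calyx at the rear of the sperm head, was 158, 167 and 178 CPM in fl/Y and 122, 136, 215 and 171 CPM in cKO/Y. The cKO/Y range enclosed the fl/Y range, and the difference was −0.16 (SE 0.15, unadjusted p = 0.306, limma). *Cylc1*, the second X-linked member, was 147, 126 and 87.3 CPM in fl/Y and 99.6, 152, 46.0 and 98.9 CPM in cKO/Y. The highest and the lowest value again both came from cKO/Y libraries, and the difference was −0.23 (SE 0.22, unadjusted p = 0.316, limma). The residual SD of *Cylc1* was larger than that of 97.1% of genes of like level, the highest such percentile among the members, although in absolute terms the residual SD of *Actl7b* (0.73 on the log2 scale) exceeded that of *Cylc1* (0.46).

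*Actl7b*, required for normal spermatid development, was 7.81, 2.63 and 1.33 CPM in fl/Y, and 2.17, 4.58, 0 and 0.301 CPM in cKO/Y. In reads these were 42, 13 and 5 in fl/Y and 7, 23, 0 and 3 in cKO/Y, so the 2 lowest libraries lay at or below the limit of 3 reads. The groups overlapped. Its difference of −0.89 (SE 0.43, 95% interval −1.81 to 0.03, unadjusted p = 0.0564, adjusted p = 0.9999, limma) was the most negative estimate and had the widest interval. It was −0.47 in batch 2 alone and −1.53 in batch 1 alone, which holds a single fl/Y library. With a pseudocount of 0.1 CPM it was −1.44 and with 1 CPM −0.67, also uncalled. The log2 ratio of *Actl7a* to *Actl7b* within a library, each with 0.5 CPM added, was 4.45, 5.95 and 6.72 in fl/Y and 5.96, 5.06, 8.76 and 7.96 in cKO/Y. The last pair comes from the libraries with 0 and 3 reads of *Actl7b* and is set largely by the pseudocount. The means differed by 1.23 (two-sided exact permutation test without batch, p = 0.343), by 0.31 within batch 2 and by 1.64 within batch 1. Without fl/Y replicate 1 the difference was 0.60, without cKO/Y replicate 3 it was 0.62 and without cKO/Y replicate 2 it was 1.85, so no size is read from it.

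**Figure D3:**
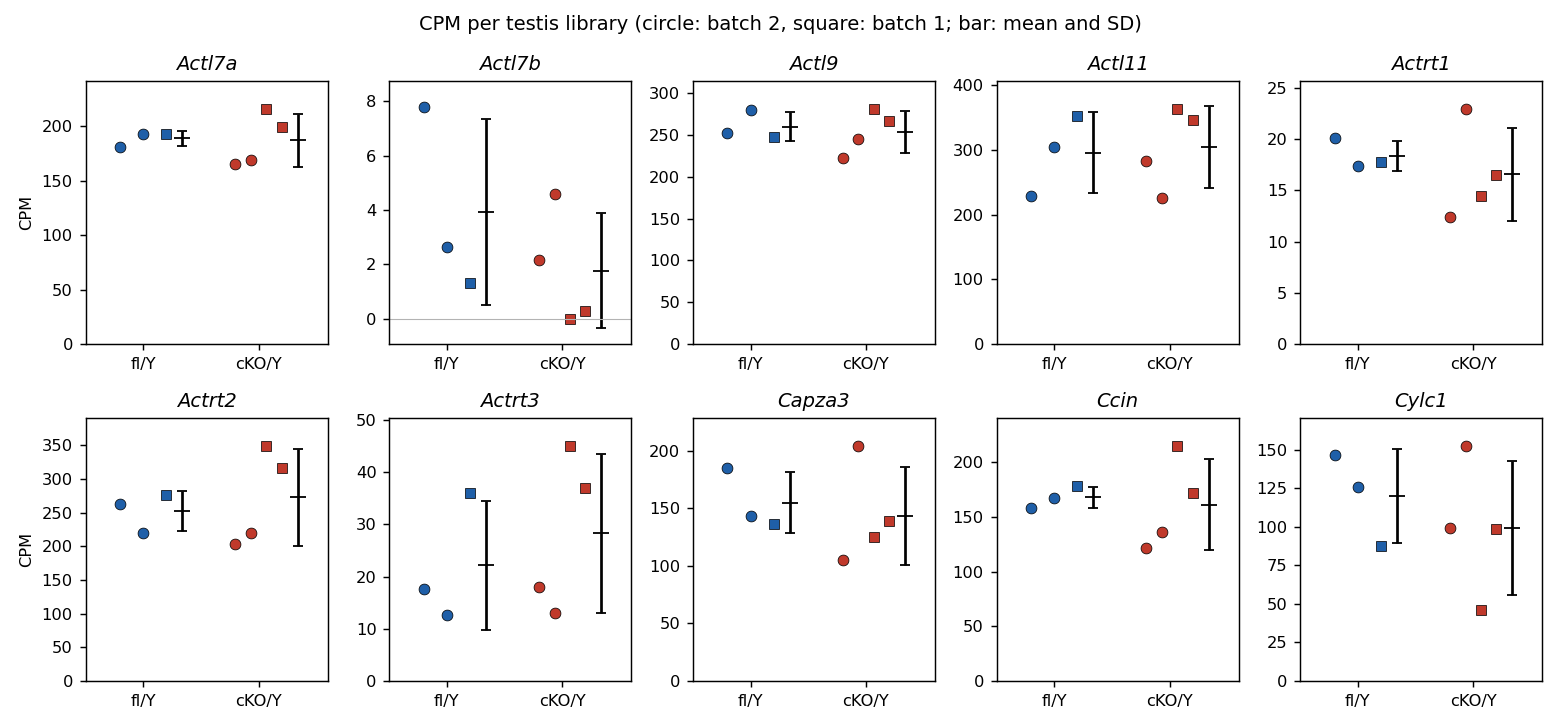
CPM of each member in each testis library, by genotype, with circles for batch 2, squares for batch 1 and a bar for the mean and SD of each genotype (n = 3 fl/Y, n = 4 cKO/Y). In all 10 panels the genotypes overlap. Over all genes tested, only 2.92% had genotypes that did not overlap. The *Actrt3* squares (36.1 to 45.0 CPM) lie above its circles (12.7 to 18.0 CPM).

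The 95% intervals of the fold between genotypes differed in width. They were 0.789 to 1.18 for *Actl7a*, 0.784 to 1.18 for *Actl9*, 0.611 to 1.19 for *Cylc1* and 0.800 to 1.41 for *Actrt3*. That of *Actl7b*, 0.285 to 1.02, holds for the pseudocount of 0.5 CPM. 6 of the members (*Actl7a*, *Actl9*, *Actl11*, *Actrt2*, *Actrt3* and *Ccin*) had their highest value in cKO/Y replicate 3, the library with the fewest reads, and 6 (*Actl7a*, *Actl9*, *Actrt1*, *Actrt2*, *Capza3* and *Ccin*) their lowest in cKO/Y replicate 1. Summed over the members, the level was 1460 to 1525 CPM in fl/Y and 1234 to 1653 CPM in cKO/Y.

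**Figure D4:**
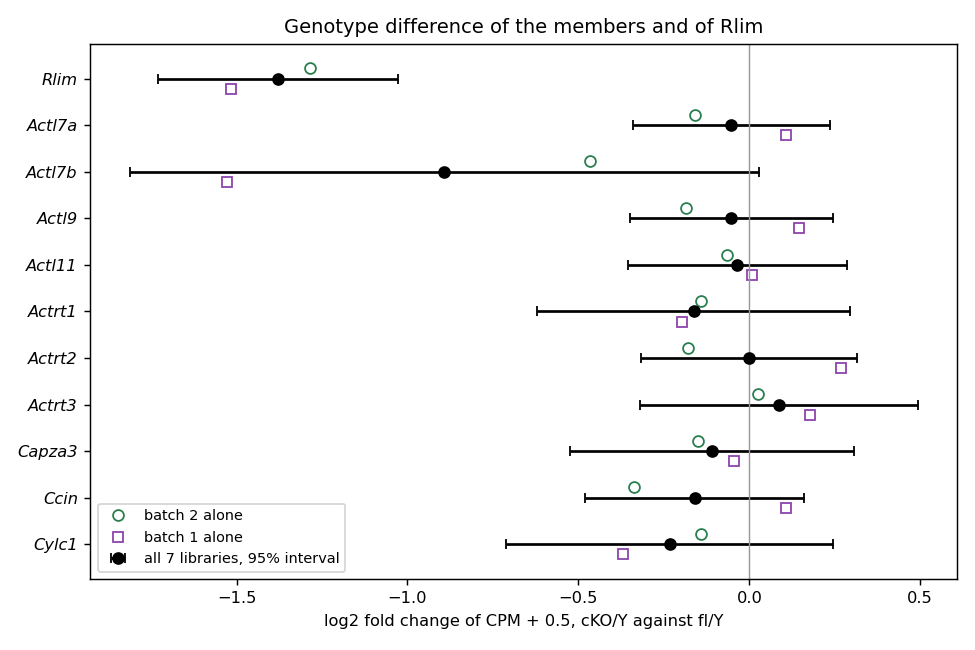
Log2 fold change of CPM + 0.5 between cKO/Y and fl/Y for the 10 members and *Rlim*, with 95% intervals from all 7 libraries (black) and estimates from batch 2 alone (circles) and batch 1 alone (squares). The interval of *Rlim* lies below 0 (−1.73 to −1.03), and that of each member includes 0.

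Other genes of the theca and of acrosome attachment were read from the same fit. Of 16 listed, all 16 were tested and 0 were called by limma, with 0 at an unadjusted p below 0.05 and 0 called by edgeR or DESeq2. Estimates lay below 0 for 13 and above 0 for 3 (median −0.11). *Cylc2*, the relative of *Cylc1*, was 192, 162 and 250 CPM in fl/Y and 194, 186, 112 and 212 CPM in cKO/Y (−0.22, SE 0.21). *Plcz1*, the egg-activating phospholipase of sperm, was 394, 371 and 315 CPM in fl/Y and 293, 467, 236 and 316 CPM in cKO/Y (−0.11, SE 0.17). *Fabp9*, a lipid-binding protein of the theca, had an estimate of −0.19 (SE 0.16), *Cypt4* −0.18 (SE 0.15) and *Cypt12*, of the same family of cysteine-rich theca proteins, −0.16 (SE 0.17). The summed level of the list overlapped between genotypes, at 2556 to 2764 CPM in fl/Y and 2132 to 3018 CPM in cKO/Y.

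Relatives and partners of these genes were also counted in the same total testis RNA. Of the genes for actin capping, profilins and actin turnover, 16 of 18 were tested, with 0 called by limma, edgeR or DESeq2, 0 at an unadjusted p below 0.05 and a median of −0.02. *Capza1* was 164, 138 and 169 CPM in fl/Y and 123, 176, 153 and 185 CPM in cKO/Y (−0.02, SE 0.16). *Capzb*, the beta subunit, had an estimate of −0.01 (SE 0.15) and *Capza2* of −0.17 (SE 0.22). Of the conventional actins, 4 of 7 were tested and 0 were called by any of these tools, and 0 had an unadjusted p below 0.05. *Actb*, the cytoplasmic actin used in most cells, had an estimate of 0.08 (SE 0.15). Of the actin-related proteins of all cells, such as *Actr1a* of dynactin, 11 of 12 were tested, with 0 called by any of these tools, 0 at an unadjusted p below 0.05 and a median of 0.03. Marker lists of spermatogonia, spermatocytes, spermatids, Sertoli, Leydig, myoid, endothelial and blood cells and macrophages held 0 called genes. At an unadjusted p below 0.05, *Rhox5* (−0.55, SE 0.24) of Sertoli cells and *Star* (−0.33, SE 0.15) of Leydig cells were lower in cKO/Y. *Pecam1* (0.72, SE 0.31) of endothelial cells was higher. Over all genes tested, 2.58% passed this threshold. Estimates went the other way for 3 of 7 Sertoli, 4 of 6 Leydig and 1 of 3 endothelial markers. The list medians were −0.01, 0.06 and 0.09, so no shift of a cell type is read from these genes.

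Between the batches, *Actrt3* was higher in batch 1 and *Actl7b* and *Cylc1* were higher in batch 2. These 3 of the 10 members were called in the same limma fit, with genotype as the covariate, against 7.06% of all genes tested. *Actrt3* was higher in batch 1, at 36.1, 45.0 and 37.0 CPM, than in batch 2, at 17.7, 12.7, 18.0 and 13.0 CPM, with no overlap. The difference was 1.33 on the log2 scale (SE 0.19, adjusted p = 0.00220, limma), or 2.51-fold, and it was called in all 12 alternatives run. *Actl7b* was lower in batch 1, at 1.33, 0 and 0.301 CPM, than in batch 2, at 7.81, 2.63, 2.17 and 4.58 CPM. It differed by −2.12 with a pseudocount of 0.5 CPM (SE 0.43, adjusted p = 0.0123, limma), by −3.10 with 0.1 CPM, by −1.64 with 1 CPM and by −2.92 in edgeR, all called, so its size is uncertain. The call was lost without fl/Y replicate 3 (adjusted p = 0.0712) or without cKO/Y replicate 3 (adjusted p = 0.0676), with the overlap with *Gm26657* as a limit on both groups. *Cylc1* was 87.3, 46.0 and 98.9 CPM in batch 1 and 147, 126, 99.6 and 152 CPM in batch 2, and differed by −0.77 (SE 0.22, adjusted p = 0.04996, limma), a call lost in 8 of 12 alternatives. Among these were the fits without any 1 of fl/Y replicates 1, 2 and 3 or cKO/Y replicates 2 and 3, of which the last gave −0.48 (adjusted p = 0.242).

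Other members also had batches that did not overlap without passing the threshold. *Actl11* was 0.46 higher in batch 1 (adjusted p = 0.0756), *Actrt2* 0.47 (adjusted p = 0.0662) and *Ccin* 0.40 (adjusted p = 0.117, all limma), while *Actl7a*, *Actl9*, *Actrt1* and *Capza3* overlapped between batches. In all, batches did not overlap for 6 of the 10 members and for 23.6% of all genes tested. These estimates depend on scaling, since plain CPM, without scaled library sizes, moved the median batch difference of all genes from 0.02 to 0.24. Under that scaling 5 members were called, *Actrt3*, *Actl7b*, *Actl11*, *Actrt2* and *Ccin*. *Cylc1* lost its call there (−0.53, adjusted p = 0.1445, limma). The estimates of *Actrt1* and *Capza3*, uncalled under both scalings, changed sign.

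Other measures moved with the batch. Spermatid markers summed to 9060 to 10780 CPM in batch 1 and 5560 to 6936 CPM in batch 2, and 3 of the 6 were called higher in batch 1. Meiotic spermatocyte markers summed to 478 to 692 CPM in batch 1 and 889 to 1144 CPM in batch 2, and 3 of 6 were called higher in batch 2. The batch difference also followed base composition. With the genes cut into 5 equal groups by GC content, those of the lowest group (28.3 to 43.0%) had a median batch difference of −0.39 and those of the highest group (54.5 to 74.2%) one of 0.36. *Cylc1*, at 36.8% GC, was the member with the lowest GC content and was lower in batch 1. *Actl7b* had the highest (58.6%) and was also lower in batch 1, against the median direction of its group. *Actrt3*, at 49.3%, was near the middle, where the median was 0.03. The part of cell makeup and of base composition in the batch differences was not tested.

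**Figure D5:**
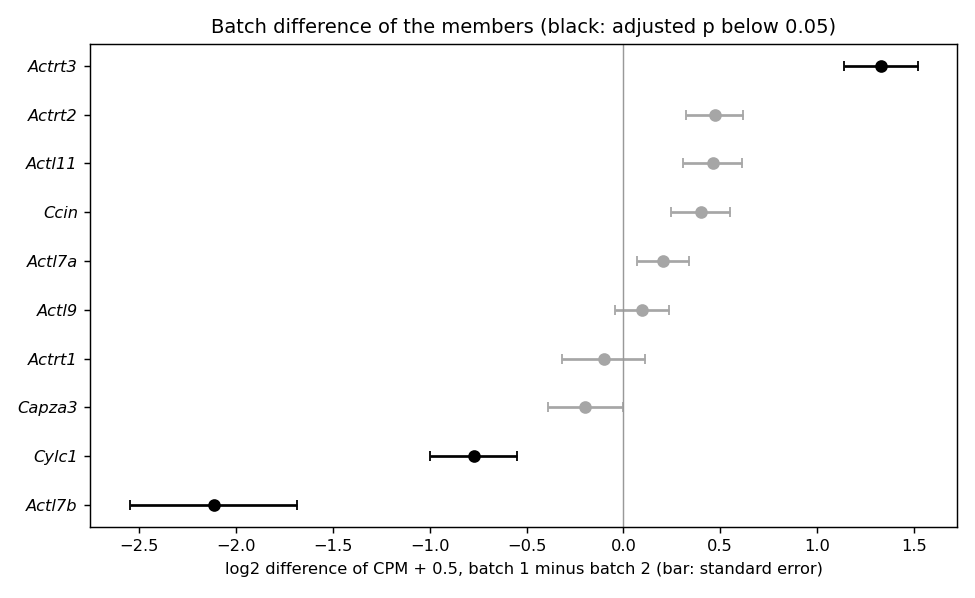
Batch 1 minus batch 2 difference of log2(CPM + 0.5) for each member, with standard errors, genotype being a covariate. Black marks the 3 members with an adjusted p below 0.05, *Actrt3* (1.33), *Cylc1* (−0.77) and *Actl7b* (−2.12, a value that ran from −3.10 to −1.64 with the pseudocount).

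Promoters of the members were searched because several genes of late spermatids are known to be switched on by CREM, a factor that binds cyclic AMP response elements. RefSeq promoters of GRCm38.p6, from 250 bases before each start to 50 after it, were at hand for 9 members and *Capza3* was not matched. The short element TGACG, searched on both strands, was found in 2 of 9 members, *Actrt3* and *Ccin*, and in 20.8% of 32851 promoters. The full palindrome TGACGTCA, which contains the short element, was found in *Ccin* alone and in 1.79% of promoters. TATAAA, a common TATA box, was found in *Actl9* alone and in 13.6% of promoters. The bases before the *Ccin* start are shown since they hold the only full palindrome among the members, in capitals, 29 bases before the first exon (chr4:43983414-43983482, plus strand).
Ccin: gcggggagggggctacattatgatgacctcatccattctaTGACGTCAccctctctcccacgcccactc
A match is a description of these letters and was not read as a binding site.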

How the data were processed

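RNA of total testis was sequenced in 7 libraries (3 fl/Y and 4 cKO/Y Sox2-Cre), and nothing beyond the methods' wording says whether separate animals were used for each, so p-values measure the spread between these samples. The labels name HISAT2 2.1.0, featureCounts, edgeR and GRCm38, whereas the methods name TopHat, HTSeq and edgeR on mm10 with paired 35-base reads. How strand was treated in counting is not given in the sources used here. The authors deposited signal values of CPM over scaled library sizes, 1 column per library. Dividing by the step of each column gave whole reads for 100% of values (tolerance 0.001 reads), and the scaling matched edgeR's TMM.

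The main test was limma 3.58.1 (R 4.3.3) with trended prior variances, at an adjusted p of 0.05. Alternatives were pseudocounts of 0.1 and 1 CPM, a different variance prior, filter or scaling, the model without batch, a replicate block, single batches, omission of each library, and edgeR 4.0.16 and DESeq2 1.42.0 on recovered reads. For the batch differences, both scalings and edgeR were added after the data were seen. The code was tested on simulated data. Overlaps, 35-base words and coding identities used GENCODE M21 with Python 3.11.15 and Biopython 1.88, and 19680 of 19719 listed genes were found there.

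Named genes are the 10 members, *Rlim*, up to 3 genes of smallest p and up to 3 of highest mean of each list, and *Cylc2*, *Capza1*, *Capza2*, *Capzb* and *Actb*. *Gm26657* was chosen after its overlap was seen. The members and lists were chosen with earlier results of these data known.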

Additional observations from a re-analysis of the deposited data

How the results depend on the processing

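Members called stayed at 0 in both directions under all 20 alternatives, as did the other actin and theca genes listed. With the filter of a mean CPM above 5, *Actl7b* (mean 2.69 CPM) was not tested, nor were other listed genes below that mean. With so few libraries, a member that stayed uncalled is not thereby shown to be stable. Of all genes tested, 1 was called lower and 0 higher. The lower count was 0 with no trend in the variance, no batch term, the replicate block or batch 2 alone, and 11 in batch 1 alone, where 17 were called higher. Batch 1 holds 1 fl/Y library, which is assumed there to vary like the cKO/Y libraries, so that those calls rest on an arm of 1 sample. With 1 library left out the lower count ranged from 0 (without fl/Y replicate 1 or 3) to 3 (without cKO/Y replicate 2) and the higher count from 0 to 1 (without cKO/Y replicate 3). The replicate block called 0 members. Same-numbered libraries correlated at 0.10, 0.07 and 0.39 in their deviations from the group means, and fl/Y replicate 1 correlated best with cKO/Y replicate 2 (0.47). Batch was not removed from these deviations, so they cannot decide whether equal numbers mark pairs. The main fit did not take the numbers as pairs.

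None of the member estimates that changed sign was called under either setting. In batch 1 alone, those of *Actl7a* (0.11), *Actl9* (0.15), *Actl11* (0.0086), *Actrt2* (0.27) and *Ccin* (0.11) rose above 0, and the *Capza3* share difference became 0.22 percentage points. With no batch term *Actl11* was 0.041 and *Actrt2* 0.078, and with median-ratio scaling *Actrt2* was 0.0022. With 1 library left out, the ranges were −0.19 to 0.016 for *Actl9*, −0.13 to 0.076 for *Actl11*, −0.38 to 0.046 for *Actrt1*, −0.18 to 0.11 for *Actrt2*, −0.013 to 0.22 for *Actrt3* and −0.34 to 0.14 for *Capza3*. The cause was not tested.

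For the batch difference, 3 members were called, and 5 with plain CPM in place of scaled library sizes, *Cylc1* not among them. The count was 1 (without fl/Y replicate 3 or cKO/Y replicate 3) to 4 (without cKO/Y replicate 1) with 1 library left out. With plain CPM in place of scaled library sizes the batch difference was 0.14 for *Actrt1* and 0.048 for *Capza3*. With 1 library left out it ranged from −0.31 to 0.12 for *Actrt1* and from −0.45 to 0.030 for *Capza3*. Depth limits *Actl7b* most, at 0 to 42 reads a library.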

Other observations

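Near-complete exon overlap like that of *Actl7b*, here counted with genes on either strand, was found for few of the protein-coding genes tested. Genes that are not listed, such as *Gm26657*, or that lay below the filter were not counted. Of the protein-coding genes tested, 21 had at least 90% of their exon bases under other genes' exons, with a median of 2.94 CPM. The 12924 with under 10% had a median of 15.8 CPM. Between batches, 23.8% of the 21 and 7.65% of the 12924 were called. The 21 include *Actl7b* itself, which was among those called. The genotype medians of both sets were near 0, at −0.0087 and −0.0010. These are descriptions of the sets, with no test, and the genes differ in other ways.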
